A study of Drosophila melanogaster with 36 samples.

Results

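Fer2, scro, apt and aop encode 4 transcription regulators that were chosen, with earlier results of these data known, as regulators of cell identity whose transcripts may cycle over the day in LNv clock neurons of Drosophila melanogaster. They were selected on their TPM over the sampling times, so those daily profiles chose them. They are 4 of the 13817 genes in the deposited table and account for 19 of its 30485 transcripts, all of which matched the annotation. LNv neurons belong to the brain's circadian network, sit ventrolaterally and are marked by the neuropeptide PDF. The cells came from female w1118 flies, wild type per the labels, in which the Pdf driver marked them with membrane GFP (Pdf>mGFP), so a library holds whatever cells the sort took as GFP-positive. The groups were flies on 1.5x sucrose-yeast food at 25 °C (HC25), on 0.5x food at 25 °C (LC25) and on 1.5x food at 18 °C (HC18); fly age is not given in the labels. Each was sampled every 2 h from ZT02 to ZT24 (ZT, zeitgeber time), which gives 12 libraries a condition, 1 for each time, and 36 in all. The study's title gives its purpose as finding transcripts that cycle in LNv neurons under different food and temperature conditions.

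Fer2 is a basic helix-loop-helix factor that flies need to form the small LNv neurons and to keep certain dopaminergic neurons alive. The gene scro encodes a homeodomain factor of the NK2 class that has been described in flies as a repressor of Pdf. The gene apt encodes a nuclear factor of tracheal, heart and border cell development that dampens JAK/STAT signalling in border cells. The gene aop, also called yan, encodes an ETS-domain repressor that opposes the activator pnt and is removed from the nucleus and degraded after phosphorylation by the MAP kinase Rolled. Factors of this kind fix what a cell becomes, and in mature neurons several are still transcribed.

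All 4 genes passed the filter of a mean of at least 1 TPM, as did 10 of their 19 transcripts (4 of Fer2, 1 of scro, 2 of apt and 3 of aop). TPM is a length-normalized share of a library, so levels of different genes may be set side by side, but the sequencing depth is unknown and no counting interval can be given. Fer2 had by far the highest level, 298 ± 116 TPM (SD, n = 36 libraries), above 96.1% of the 8649 genes tested. It was followed by aop at 49.4 ± 24.9 TPM, above 78.7% of tested genes. Lower down were apt at 7.63 ± 6.88 TPM (above 32.6%) and scro at 3.70 ± 2.06 TPM (above 19.7%). Every Fer2 value except the lowest exceeded every aop value, while every scro value lay within the range of apt.

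As a check of the cells, the 9 LNv markers summed to between 78550 TPM and 302800 TPM per library, nearly all of it Pdf, and Trissin was listed at 0 in 21 libraries. The glial factor repo averaged 0.877 TPM. The HC25 library of ZT06 stood apart: Pdf was at its lowest there (76780 TPM), and the median ratio of its genes to the average library was 0.593. Glial markers summed to 994 TPM in that library and 1542 TPM in HC25 at ZT08, against at most 458 TPM in LC25 and 306 TPM in HC18. The 4 HC18 libraries of ZT06, ZT08, ZT10 and ZT22 held 121 to 1603 TPM of the transcript fmt, against 18790 to 84170 TPM in the other 8.

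The daily course of the members follows as a description, since their rhythm is what they were chosen for: no test of it is given. Amplitudes are those of a fitted 24 h cosine, from mean to peak on the log2(TPM + 1) scale, with the fold from trough to peak on the same scale.

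**Figure D1:**
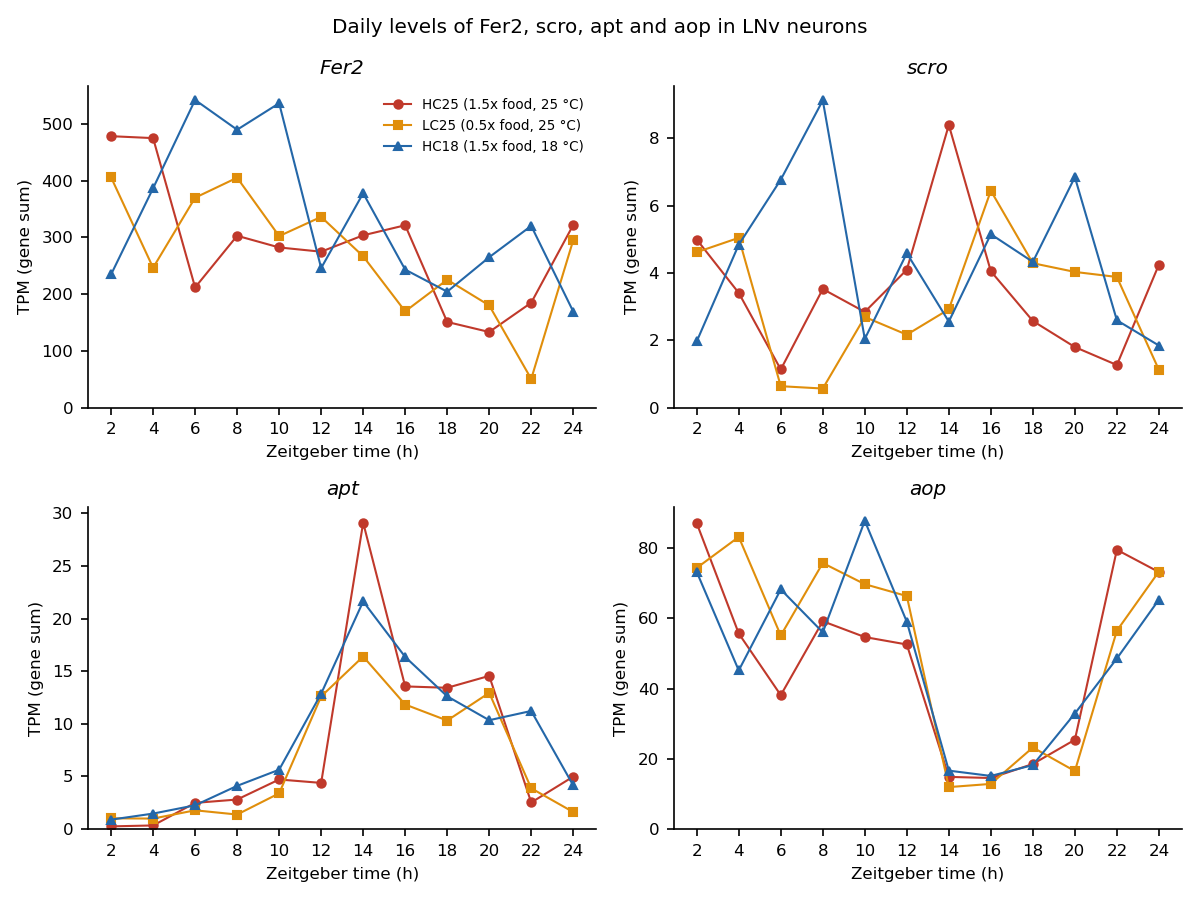
Gene sums in TPM (vertical axis, from 0) against zeitgeber time in h for Fer2, scro, apt and aop, with 1 point per library and 1 line per condition (12 libraries each). The aop values of ZT14 to ZT20 lie between 11.9 and 32.9 TPM and all others between 38.1 and 87.8 TPM. Transcripts of apt are highest at ZT14 in each condition. The mean of Fer2 over the 3 conditions is lowest at ZT18 to ZT22 (185 to 194 TPM). Its single values at ZT22 run from 50.5 TPM in LC25 to 320 TPM in HC18. The 3 lines of scro do not run together.

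Transcripts of aop showed a sharp trough rather than a smooth wave. In HC25 the values at ZT14, ZT16, ZT18 and ZT20 were 14.9, 14.5, 18.5 and 25.4 TPM, against 38.1 to 87.1 TPM at the other times (median 57.4). In LC25 they were 11.9, 12.9, 23.2 and 16.5 TPM, against 55.1 to 83.2 TPM (median 71.5). In HC18 they were 16.6, 15.1, 18.2 and 32.9 TPM, against 45.2 to 87.8 TPM (median 62.2). The 12 libraries of this window thus lay below the other 24 without overlap, from 11.9 to 32.9 TPM against 38.1 to 87.8 TPM. The window was chosen after the values were seen; with the same window, 2 of 8649 genes (0.0231%) had all 12 values below the others, aop and CG34325. Mef2, which encodes a muscle and neuron transcription factor, was among the 5 genes (0.0578%) with all 12 values above.

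From ZT12 to ZT14 the level of aop dropped 3.54-fold (HC25), 5.55-fold (LC25) and 3.55-fold (HC18). From ZT20 to ZT22 it was higher by 3.13-fold, 3.42-fold and 1.48-fold in the same order. A cosine describes this shape only in part. The fitted amplitude was 1.01 ± 0.131 (SE, n = 36), a 4.05-fold range, with a peak at ZT4.41. A 12 h term fitted beside it had an amplitude of 0.61, against 0.19 for Fer2, 0.27 for scro and 0.08 for apt.

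Transcripts of apt ran the other way. In HC25 they were at 29.1, 13.5, 13.4 and 14.6 TPM from ZT14 to ZT20, against 0.257 to 4.98 TPM at the other times. In LC25 they were at 16.4, 11.8, 10.3 and 12.9 TPM, against 0.997 to 12.6 TPM, and in HC18 at 21.6, 16.4, 12.6 and 10.3 TPM, against 0.897 to 12.9 TPM. At ZT12 LC25 (12.6 TPM) and HC18 (12.9 TPM) were already within their range of ZT14 to ZT20, while HC25 was at 4.39 TPM. At ZT22 HC18 still held 11.2 TPM, whereas HC25 held 2.52 TPM and LC25 3.87 TPM. The lowest values came at ZT02 and ZT04 in every condition, and fell below 1 TPM in 4 libraries of those times.

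The fitted amplitude of apt was 1.59 ± 0.117 (SE, n = 36), a 9.11-fold range, above that of 99.47% of tested genes. Because many of its values lie near the pseudocount, this amplitude depends on it: it was 2.02 with a pseudocount of 0.1 TPM and 0.94 with 5 TPM. The peak lay at ZT15.94 ± 0.281 h, and in the single conditions at ZT15.97 in HC25, ZT15.90 in LC25 and ZT15.95 in HC18. It followed the aop peak by 11.53 h, and by 12.4 h, 11.17 h and 11.07 h in HC25, LC25 and HC18. The earlier rise at ZT12 in LC25 and HC18, and the later fall after ZT22 in HC18 alone, each rest on single libraries.

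Fer2 varied less and less regularly. In HC25 it ranged from 133 TPM at ZT20 through a median of 293 TPM to 479 TPM at ZT02. In LC25 it ranged from 50.5 TPM at ZT22 (median 281) to 406 TPM at ZT02, and in HC18 from 169 TPM at ZT24 (median 293) to 542.5 TPM at ZT06. The highest HC25 values lay at ZT02 and ZT04 (479 and 475 TPM), whereas in HC18 ZT06, ZT08 and ZT10 were highest (542.5, 490.0 and 537 TPM). The ranges of different times overlapped between conditions, and the fitted peaks were ZT6.06 ± 1.80 h in HC25, ZT8.02 ± 1.09 h in LC25 and ZT8.27 ± 1.41 h in HC18 (SE).

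Single libraries weighed on these values. The 3 highest HC18 libraries are among the 4 that were low in fmt. Those 4 held 472 TPM of Fer2 on average (320 to 542.5 TPM), and the other 8 held 266 ± 77.6 TPM (SD, n = 8). The 4 are the libraries of ZT06, ZT08, ZT10 and ZT22, so this contrast is not matched for time of day. Library and time cannot be told apart in it. Without the 4, the HC18 amplitude of Fer2 was 0.39 ± 0.338 (SE), against 0.56 ± 0.207 with them. The fit without them also lacks those times. In LC25 the amplitude was 0.73 ± 0.207, and 0.45 ± 0.170 without the ZT22 library, which holds the lowest Fer2 value; that library was left out after seeing the data. In HC25 the amplitude was 0.44 ± 0.207, and 0.61 ± 0.220 without the ZT06 library. Rescaling that library by its median ratio moved its Fer2 value from 212 to 357 TPM.

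The 3 conditions gave no common daily course for scro. Its levels ranged from 1.13 TPM at ZT06 to 8.39 TPM at ZT14 in HC25 (median 3.46), from 0.566 TPM at ZT08 to 6.44 TPM at ZT16 in LC25 (median 3.40), and from 1.84 TPM at ZT24 to 9.12 TPM at ZT08 in HC18 (median 4.46). The time of the lowest value in LC25 was thus the time of the highest in HC18. The lowest HC25 value came from the ZT06 library that stood apart. After rescaling by the median ratio it was 1.91 TPM, and ZT22 was lowest in HC25 (1.17 TPM). The fitted amplitude was 0.20 ± 0.151 (SE, n = 36), below 1.5 times its error. In the single conditions it was 0.27 (peak ZT12.6) in HC25, 0.58 (ZT19.0) in LC25 and 0.22 (ZT10.4) in HC18, each ± 0.258 (SE), so that the LC25 amplitude alone exceeded its error by more than 2 times. A 24 h cosine thus described little of the scro values over the 36 libraries together. The 12 h term fitted beside it was larger (0.27), and values this low are compressed on the log2(TPM + 1) scale. Whether scro cycles was not tested. In the authors' deposited table over all 36 libraries, the rhythm score of scro was 0.312 and ranked 5675 of 7864 genes. The same table ranked apt 137 with a score of 0.901, aop 441 with 0.729 and Fer2 710 with 0.654. In the authors' deposited table of the 25 °C libraries the order was apt (rank 293, score 0.869), Fer2 (299, 0.867), aop (438, 0.807) and scro (6688 of 7991, 0.336). The authors' phases over all 36 libraries were 4.34 h for Fer2, 13.61 h for apt, 2 h for aop and 20 h for scro. The cosine peaks fitted here to all 36 libraries were ZT7.61, ZT15.94, ZT4.41 and ZT15.86 in that order. The authors' phases were thus earlier for Fer2, apt and aop, and later for scro. At 25 °C their phase of Fer2 was 2 h. The reason for these gaps was not tested, so the peak times depend on the method.

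**Figure D2:**
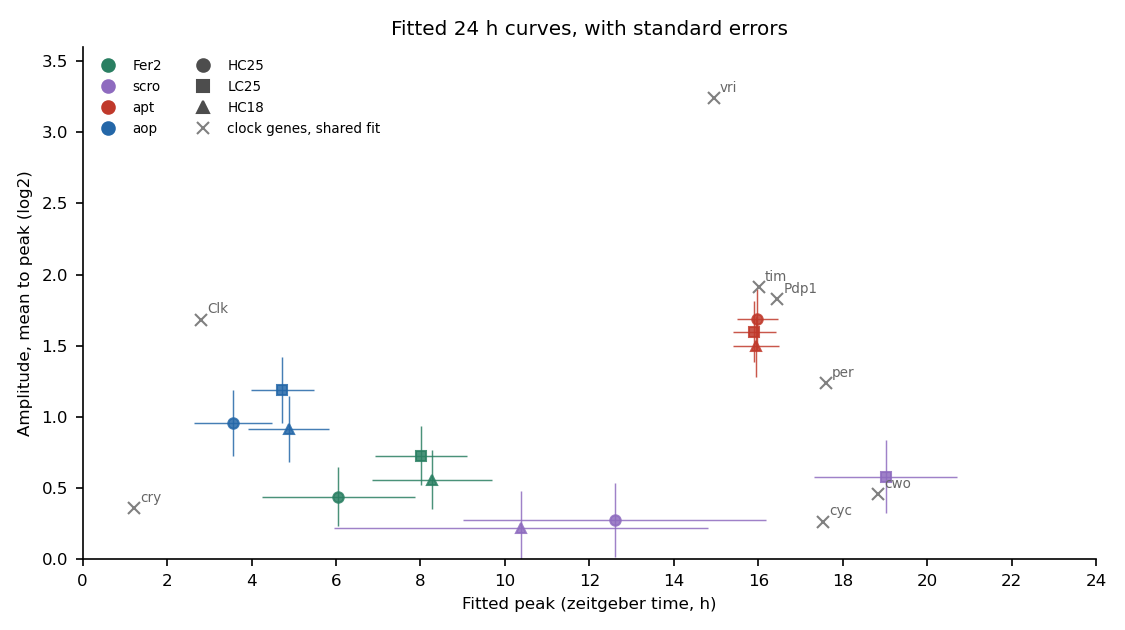
Fitted amplitude (log2, mean to peak) against fitted peak in h of zeitgeber time for each member in each condition (12 libraries each; bars are standard errors in both directions), with core clock genes from the fit shared by the 36 libraries as grey crosses without bars. The 3 points of apt lie within 0.1 h of ZT16 near tim and Pdp1, those of aop between ZT3.57 and ZT4.88, those of Fer2 between ZT6.06 and ZT8.27, and those of scro are spread from ZT10.4 to ZT19.0, with the LC25 point highest (0.58).

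The same peaks can be set beside those of the core clock. The gene tim, whose protein partners PER in the repressor complex, peaked at ZT16.01, and Clk, which encodes an activator of tim and per, at ZT2.80. For each member the genes with the most similar pattern were taken from 5281 genes with a mean of at least 10 TPM, by Pearson correlation across the 36 libraries after each condition's mean was subtracted. These coefficients are descriptions, because the libraries share their sampling times, and any gene with a similar daily course will correlate. For apt, tim itself was the most similar (r = 0.915), followed by CG13054 (r = 0.900) and CG31183 (r = 0.890). For aop they were CG43902 (r = 0.879), CG8745 (r = 0.858) and rsh (r = 0.855). Among those for Fer2 were Sec61gamma (r = 0.880) and Sec61alpha (r = 0.879), subunits of the channel that moves new proteins into the endoplasmic reticulum. The closest to scro were Sec20 (r = 0.605), Bicra (r = 0.568) and eEF1delta (r = 0.555), well below the others.

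Whether poorer food altered the levels was asked at 25 °C, with 12 time-matched pairs of libraries. No member passed, and each interval spans 0. Fer2 averaged 271 ± 105 TPM in LC25 and 287 ± 110 TPM in HC25 (SD, n = 12 each), a log2 difference of -0.14 (95% interval -0.57 to 0.29, higher in 6 of 12 pairs, limma adjusted p = 0.983). It was 0.04 without the LC25 library of ZT22 and -0.23 without the HC25 library of ZT06. For aop the means were 51.6 ± 27.4 and 47.8 ± 25.4 TPM (log2 0.06, interval -0.20 to 0.31, 7 of 12 pairs, limma adjusted p = 0.987). For apt they were 6.51 ± 5.79 and 7.76 ± 8.46 TPM (log2 -0.08, interval -0.47 to 0.30), and for scro 3.20 ± 1.85 and 3.53 ± 1.96 TPM (log2 -0.15, interval -0.70 to 0.40), both with limma adjusted p = 0.987. Directions this small can rest on 1 library: without LC25 ZT08 the scro difference was 0.02, and without LC25 ZT04 that of aop was -0.01. Of all genes tested 0% were called in this comparison, and 453 of 8649 had an unadjusted p below 0.05.

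**Figure D3:**
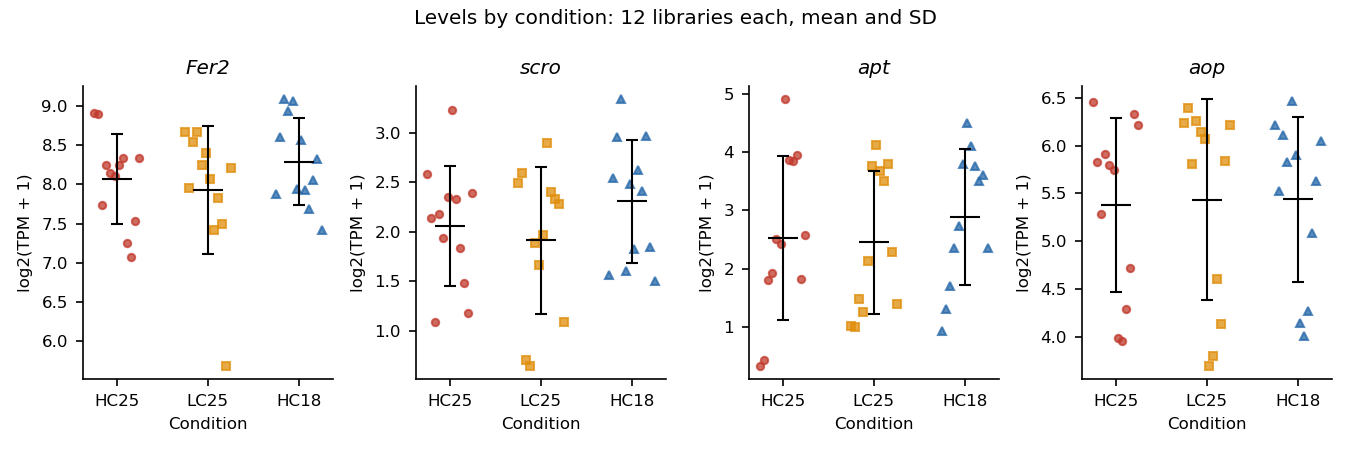
Values of log2(TPM + 1) of the 12 libraries of each condition, drawn from left to right in order of time, with the mean and SD in black. For each of the 4 genes the spread within a condition is larger than the difference between condition means, and the lowest Fer2 point in LC25 is the library of ZT22.

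At 18 °C on the same food as HC25, Fer2 averaged 335 ± 131 TPM, with a log2 difference from HC25 of 0.22 (95% interval -0.21 to 0.65, higher in 7 of 12 pairs, limma adjusted p = 0.545). Leaving out the 4 HC18 libraries with little fmt gave a difference of -0.13 (limma adjusted p = 0.833), so its direction turned. That fit also lacks ZT06, ZT08, ZT10 and ZT22 in HC18, so library and time cannot be told apart here either. The Fer2 difference was 0.13 without HC25 ZT06 and 0.09 without HC18 ZT22. The value of apt was 8.63 ± 6.56 TPM, a log2 difference of 0.35 (interval -0.03 to 0.74, 7 of 12 pairs, limma adjusted p = 0.243; 0.20 without the 4 libraries). For aop it was 48.9 ± 23.9 TPM (log2 0.06, interval -0.20 to 0.32, 6 of 12 pairs, adjusted p = 0.814). For scro it was 4.39 ± 2.32 TPM (log2 0.25, interval -0.31 to 0.80, 8 of 12 pairs, adjusted p = 0.617; -0.07 without the 4 libraries). None of the 4 was called, while 8.22% of all genes tested were. Changes of 1 on the log2 scale were recovered in 88% of genes simulated for this comparison, and changes of 0.5 in 36%. These rates are averages over genes drawn at random, each with its own spread, and not rates for the members. The SE of the difference was 0.27 for scro, 0.21 for Fer2, 0.19 for apt and 0.13 for aop. Differences of these sizes in the members could thus have been missed.

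HC18 and LC25 differ in food and temperature together. The largest difference between them among the members was that of apt, at log2 0.44 (interval 0.05 to 0.82, higher in HC18 in 10 of 12 pairs), which did not pass after adjustment (limma adjusted p = 0.134). Fer2 (log2 0.36, adjusted p = 0.289), scro (0.39, adjusted p = 0.380) and aop (0.00, adjusted p = 0.988) did not pass either, and 9.67% of all genes tested were called (7.01% higher and 2.66% lower in HC18). Without the 4 fmt-poor libraries these differences were 0.29 for apt, 0.00 for Fer2, 0.08 for scro and -0.02 for aop. With all libraries the mean TPM was highest in HC18 and lowest in LC25 for Fer2, apt and scro. That order did not hold for Fer2 and scro without the 4 libraries, where HC18 lay below HC25 on the log2 scale. The means of aop lay so close that their order on the TPM scale (LC25, HC18, HC25) and on the log2 scale (HC18, LC25, HC25) differed. No neighbours in any of these orders passed the test. In whole sorted samples, fewer cells with a transcript and less transcript per cell cannot be told apart.

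Rhythms were also compared between conditions, as the length of the vector between the fitted curves (log2). From HC25 to LC25 it was 0.41 ± 0.292 for Fer2, 0.67 ± 0.364 for scro, 0.09 ± 0.302 for apt and 0.40 ± 0.329 for aop (SE). That of Fer2 was 0.05 without the LC25 library of ZT22. From HC25 to HC18 it was 0.31 ± 0.292, 0.15 ± 0.364, 0.19 ± 0.302 and 0.32 ± 0.329 in the same order. None passed, with limma adjusted p of 0.969 to 1 for food and 0.994 for temperature. In both comparisons 0% of all genes tested were called, with 355 and 316 at an unadjusted p below 0.05. Between LC25 and HC18 no member passed either (adjusted p = 0.9999 for each in limma), and 0.0116% of genes were called. Rhythm differences of 1 on the log2 scale were recovered in 62% of genes simulated for the temperature comparison, and of 0.5 in 6%.

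The gene sums hide different make-ups of transcripts. Positions are those of the BDGP6.54 annotation, since no source used here gives the build behind the deposited table. Fer2 is a short gene (3R:16149369-16151312, minus strand) with 4 annotated transcripts that share their start, end and number of exons, and differ by 15, 27 and 3 coding bases, that is 5, 9 and 1 codons. Fer2-RB held 68.7% of the gene's TPM, Fer2-RC 20.8%, Fer2-RD 8.64% and Fer2-RE 1.91%. Fer2-RC swung more widely than Fer2-RB, from 4.43 TPM in HC18 at ZT24 to 166 TPM in HC18 at ZT10. Its fitted amplitude was 0.96 ± 0.208 (SE) with a peak at ZT8.54, against 0.48 ± 0.113 and ZT7.35 for Fer2-RB, given without a test. Transcripts so alike are told apart only by reads over the few bases that differ, and the error of that assignment is not in the files.

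**Figure D4:**
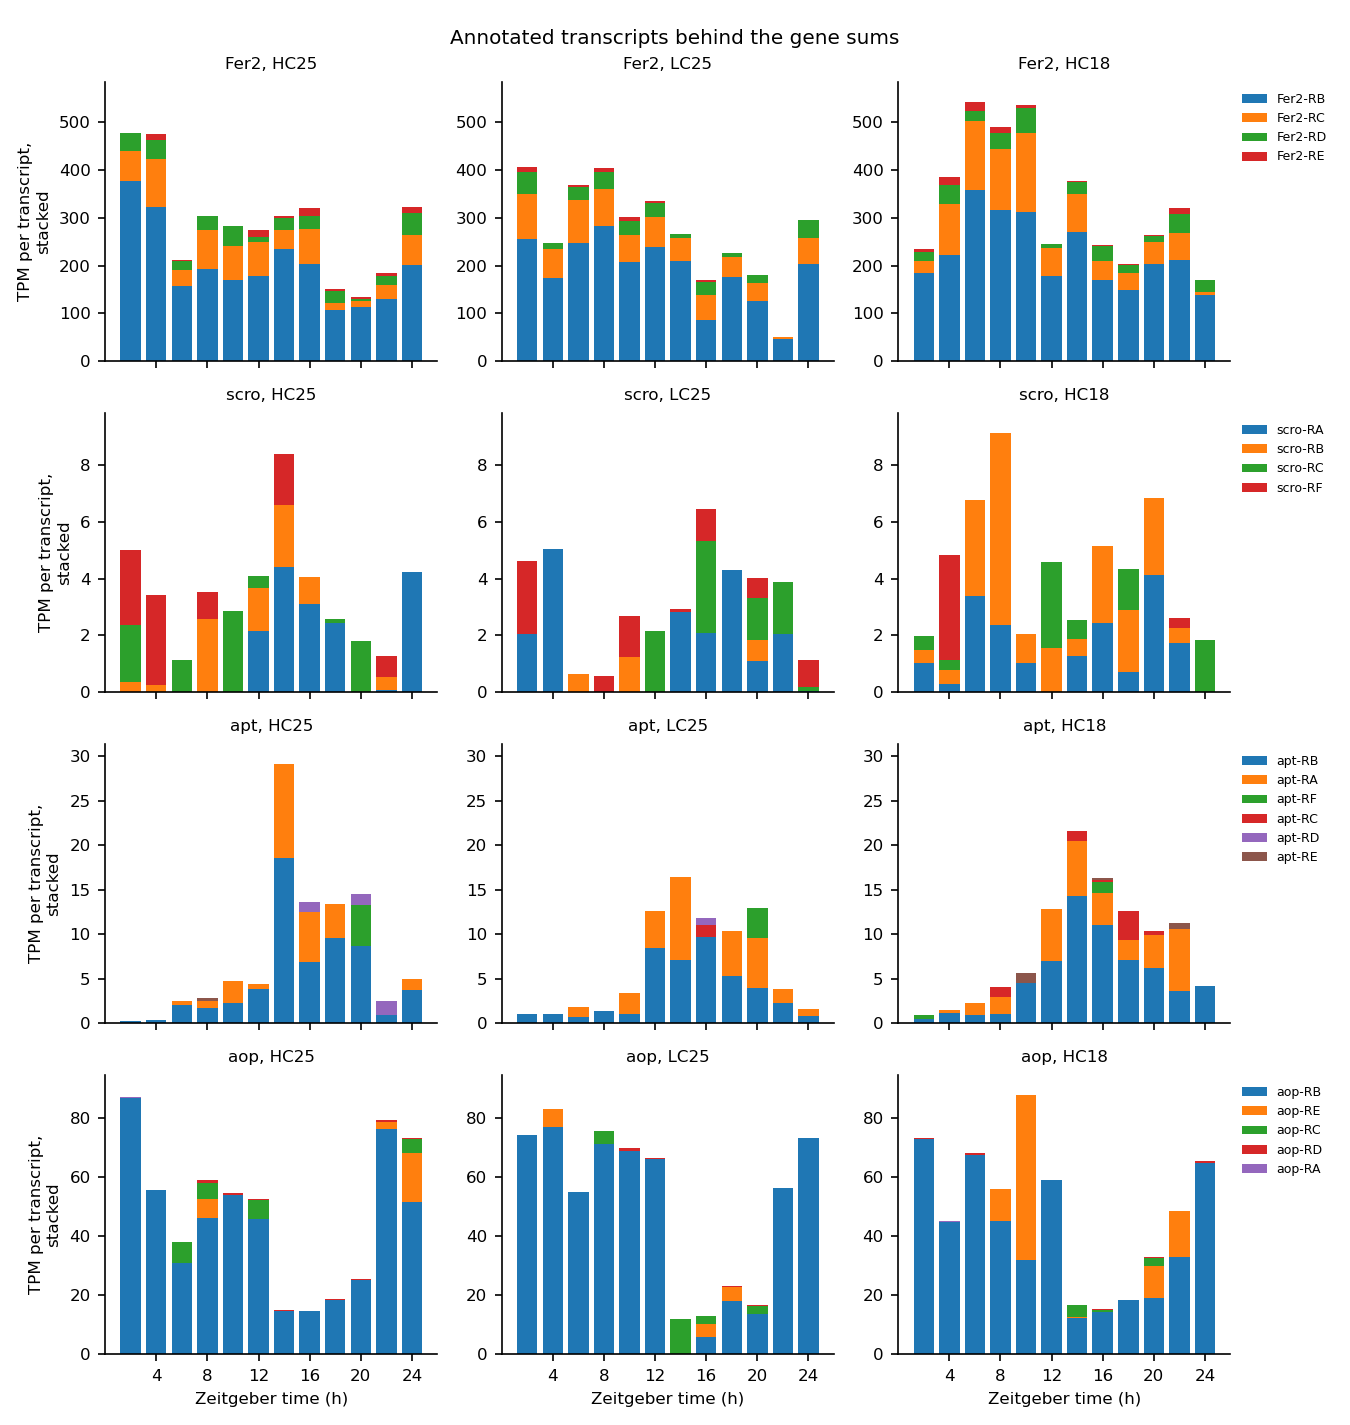
TPM of each annotated transcript, stacked to the gene sum, by zeitgeber time in h, with 1 row per gene, 1 column per condition and 1 bar per library. Fer2-RB and aop-RB make up most of their genes in nearly every library, apt is held mainly by apt-RB and apt-RA, and the makeup of scro changes from library to library.

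The gene apt (2R:23564891-23599526, plus strand) was read mainly as apt-RB (59.1% of its TPM, above 0 in 36 libraries) and apt-RA (32.0%, above 0 in 25 libraries), which starts 16199 bases downstream. The fitted curves of both peaked close together, at ZT15.9 with an amplitude of 1.36 for apt-RB and at ZT15.4 with 1.09 for apt-RA. Each of the other 4 apt transcripts held at most 3.53%. The gene aop (2L:2156484-2178754, minus strand) was read mainly as aop-RB (88.95%), and all of its 5 transcripts share a coding sequence of 732 codons. Its share was lowest in LC25 at ZT14, where it was at 0.177 TPM and aop-RC held 11.8 of 11.9 TPM. It also held the smaller part in HC18 at ZT10, where aop-RE reached 55.9 TPM, and in LC25 at ZT16, with 5.72 of 12.9 TPM. The gene scro (3L:24724162-24758036, plus strand) had its TPM divided among scro-RA (40.7%), scro-RB (25.0%), scro-RC (18.8%) and scro-RF (15.6%), which were above 0 in 26, 22, 21 and 14 libraries.

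No member transcript was called in level between LC25 and HC25 or between HC18 and HC25, where 0% and 4.76% of 14167 transcripts were called in limma. None was called in its balance against the rest of its gene either, where 0% and 1.8% of 10750 transcripts were called; the smallest adjusted p of a member transcript in limma over 3 pseudocounts was 0.508. Exons of Fer2 overlap CG5916 on the other strand, those of apt CG42560 and CG42559, and those of aop CG15382. Whether strand was used is not stated, so reads of these pairs cannot be told apart. CG5916 averaged 59.7 TPM with a fitted amplitude of 0.27 and a peak at ZT6.70. CG15382 averaged 12.4 TPM with an amplitude of 0.02, and CG42560 and CG42559 stayed below 0.5 TPM on average.

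Other regulators and pathway genes were taken from lists chosen with earlier results of these data known, so their counts are descriptive. Over the 3 conditions 2065 of 8649 genes (23.9%) passed the test of a shared 24 h rhythm in limma, and 66.8% of these peaked between ZT12 and ZT24. Of 29 other transcription factors of neuronal identity 23 were tested and 12 (52.2%) passed, 10 of them with peaks between ZT12 and ZT24. The largest range was that of chinmo, a BTB zinc finger factor of neuronal timing (5.72-fold, peak ZT1.48, limma adjusted p = 3.34e-06). It was followed by br, an ecdysone response factor (2.43-fold, ZT21.9, adjusted p = 6.35e-05), and Mef2 (2.17-fold, ZT18.2, adjusted p = 4.55e-07). mamo peaked in the first part of the day, near Fer2 (1.75-fold, ZT7.05, adjusted p = 0.000199). The list's median amplitude was 0.26, against 0.20 over all genes.

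At 18 °C against HC25, 2 of these factors were higher and 1 lower, where 5.92% and 2.3% of all genes were called higher and lower. Hr51, a nuclear receptor also known as unfulfilled, rose by 0.53 on the log2 scale (limma adjusted p = 0.0129), and toy, a Pax6 factor, by 0.44 (adjusted p = 0.0225). mamo fell by 0.61 (adjusted p = 0.00186). Over all genes, calls in this comparison fell from 711 to 138 without the 4 fmt-poor HC18 libraries. Whether the listed genes named here kept theirs was not tested. Of the bHLH relatives of Fer2, 12 of 25 were tested and 2 (16.7%) were rhythmic, against 23.9% of all genes. They were Mnt (1.65-fold, ZT14.0, adjusted p = 3.40e-05) and net (1.80-fold, ZT17.1, adjusted p = 0.0253). The bHLH gene sage was lower in HC18 than in HC25, at log2 -0.90 (adjusted p = 0.0112). Of 13 NK homeobox relatives of scro only NK7.1 and vnd were high enough to be tested. NK7.1 varied 2.08-fold with a peak at ZT18.8 (adjusted p = 1.21e-05) and vnd 1.98-fold with a peak at ZT9.81 (adjusted p = 0.00877).

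The partners of aop were sparse. pnt, the activator that Aop opposes, averaged 0.498 TPM and was listed at 0 in 2 libraries, and edl, whose product binds Aop, averaged 0.396 TPM and was listed at 0 in 10. Neither passed the filter. Of 8 other ETS genes 3 were tested and 1 passed, Eip74EF (1.54-fold, ZT2.56, limma adjusted p = 0.0473). The number of ETS genes that passed stayed at 1 in only 16 of 45 other settings, single libraries left out included. In the receptor tyrosine kinase, Ras and MAPK pathway 25 of 33 genes were tested and 6 (24%) were rhythmic, close to the share of all genes. Mkp3, a phosphatase of the MAP kinase, varied 3.30-fold with a peak at ZT11.9 (adjusted p = 2.16e-06), and the receptor gene Pvr 3.14-fold with a peak at ZT14.2 (adjusted p = 1.26e-06). The kinase gene rl, which encodes Rolled, varied 1.58-fold with a peak at ZT14.8 (adjusted p = 0.00463), and the inhibitor gene sty 1.55-fold with a peak at ZT5.97 (adjusted p = 0.00263). None of the 25 was called between HC18 and HC25. Between HC18 and LC25, 2 were called lower in HC18, where 2.66% of all genes were. They were the insulin receptor gene InR (log2 -0.43, adjusted p = 0.0222) and the phosphatase gene csw (log2 -0.40, adjusted p = 0.0224).

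**Figure D5:**
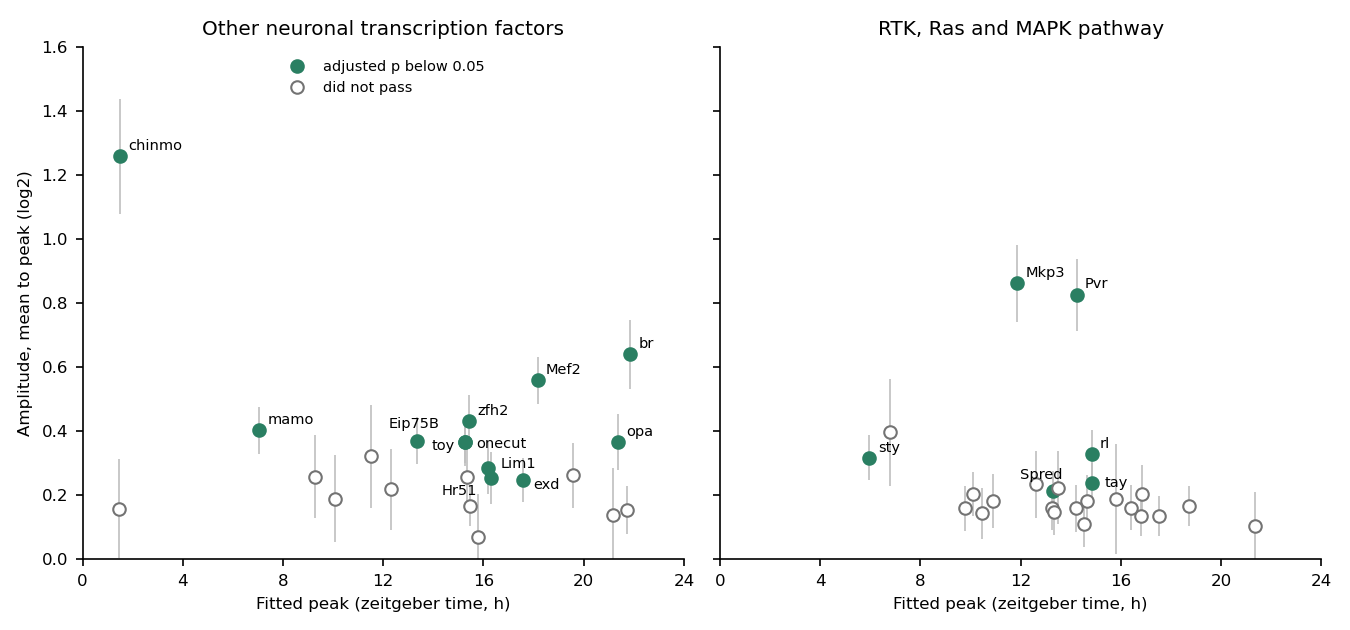
Fitted amplitude (log2, mean to peak, with standard error) against fitted peak in h of zeitgeber time for 23 tested neuronal transcription factors (left) and 25 tested genes of the receptor tyrosine kinase, Ras and MAPK pathway (right), over 36 libraries. Filled points passed the limma test of a shared rhythm, 12 on the left and 6 on the right, and chinmo stands above the rest.

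In the JAK/STAT pathway, which apt dampens in border cells, 8 of 12 genes were tested and 2 (25%) passed, close to the 23.9% of all genes. Stat92E, the transcription factor of the pathway, varied 1.37-fold with a peak at ZT15.4 (limma adjusted p = 0.0161), and dome, its receptor, 1.42-fold with a peak at ZT12.4 (adjusted p = 0.0422). After rescaling by the median ratio 0 of the 8 passed, with 1888 rhythmic genes in all. None of these 8 was called in level between conditions.

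Markers of other cells were read beside Fer2, because it is also a gene of dopaminergic neurons. Of that list ple, Ddc, DAT and Vmat were in the table, and their sum ran from 95.3 to 420 TPM in HC25, from 99.6 to 376 TPM in LC25 and from 150.5 to 740 TPM in HC18, where ZT06, the library with the most Fer2, was highest. Ddc, which also serves serotonergic cells, made up 71.2 to 97.5% of this sum (median 91.9%). Across the 36 libraries, with condition means subtracted, the sum had a Pearson coefficient of 0.719 with Fer2, 0.611 with aop, -0.571 with apt and 0.0296 with scro, a description only, since the libraries share their sampling times. Ddc peaked at ZT7.17 (3.92-fold, limma adjusted p = 7.96e-11) and was higher in HC18 than in HC25 by log2 0.84 (adjusted p = 0.000895). Whether that difference held without the fmt-poor HC18 libraries, ZT06 among them, was not tested. The marker ple, tyrosine hydroxylase, had a median of 1.30 TPM, with 0 in 1 library and at most 9.49 TPM. Vmat had a median of 1.43 TPM and reached 54.9 TPM. DAT, the dopamine transporter, was present in every library at 4.33 to 29.1 TPM and varied 1.76-fold with a peak at ZT23.1 (adjusted p = 0.0237). The part of such cells in the Fer2 values was not tested.

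Of the remaining marker lists, rhythmic genes numbered 5 of 8 tested for LNv neurons, 2 of 10 for glia, 1 of 5 for fat body, 2 of 7 for Kenyon cells and 0 of 1 for haemocytes, 0 of 4 for muscle and 0 of 5 for photoreceptors, at 23.9% of all genes. Tracheal markers, which bear on apt as a tracheal gene, summed to at most 4.51 TPM in any library and none was tested. Fat body markers summed to 55.1 to 387 TPM (coefficient with Fer2 0.635, computed in the same way), and their rhythmic gene, FASN1, peaked at ZT6.55. FASN1 averaged 85.5 TPM, and the next highest gene of that list, Yp1, 14.3 TPM. Coefficients of the other lists of this paragraph with Fer2 ran from -0.453 (Kenyon cells) to 0.29 (LNv neurons). The gene sNPF is on both of these lists and is 1 of the 2 rhythmic Kenyon cell genes (30.5-fold, peak ZT21.4). It averaged 442 TPM, and the next highest Kenyon cell gene, Fas2, 146 TPM. The Kenyon cell coefficient is thus largely that of an LNv marker. Among the rhythmic LNv genes are the clock genes tim and Clk. Photoreceptor markers reached 1037 TPM in LC25 at ZT18, against at most 97.9 TPM in HC25 and 65.5 TPM in HC18. At that time LC25 held 225.5 TPM of Fer2, 4.29 TPM of scro, 10.3 TPM of apt, its lowest between ZT14 and ZT20, and 23.2 TPM of aop. The part of these other cells in the members' values was not tested.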

How the data were processed

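TPM per transcript were deposited by the authors; the submitters' processing notes name kallisto, while its version, transcript set, genome build and any use of strand are not stated. RNA of sorted cells was amplified with T7 RNA polymerase before sequencing, per the labels' protocols, which can distort levels. The authors' deposited tables of rhythm scores (TauMean) and phases (PhaseMean) were used for description only. Depth is unknown, as TPM are scaled to a fixed total. Condition codes were matched to food and temperature by their letters and numbers and the design text.

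Transcripts were named from BDGP6.54, Ensembl release 115 (30246 of 30485 matched; the other 239 held a mean of 0.139% of TPM), 2 reporter sequences were left out, and TPM were summed per gene. Tests used limma 3.58.1 (R 4.3.3, trend) on log2(TPM + 1) of 8649 genes with a mean of at least 1 TPM over all 36 libraries, a scale that understates the change of low genes. Levels were fitted with condition and time point as factors, rhythms with 24 h cosine and sine terms. P-values were adjusted by Benjamini-Hochberg over all features, with calls below 0.05, and the code was tested on simulated data. With 1 library per time and condition, and nothing in the labels on separate pools of flies, p-values reflect only how these libraries scatter, which may be technical. Libraries were paired by time point alone.

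The members and all gene lists were chosen with earlier results of these data known. The text names the members, the 3 genes most similar to each, and per list up to 4 genes of smallest rhythm p and up to 2 of smallest level p among those that passed; some of these were left out for length, 1 gene similar to a member is not reported here, and pnt, edl, repo, the genes beside CG34325 and the overlapping genes were added. Symbols not found in the table were upd2, Hhex, Punch, Rh6 and dys. Alternatives changed the pseudocount, filter, scaling, time factor and libraries.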

Additional observations from a re-analysis of the deposited data

How the results depend on the processing

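No difference of a member between conditions, in level or rhythm, passed under any alternative fitted, and the smallest adjusted p in limma was 0.0671, for apt in HC18 against LC25 without the LC25 library of ZT12. Without the LC25 library of ZT22, left out by itself after seeing the data, the Fer2 difference between LC25 and HC25 was 0.04 in place of -0.14. Amplitudes ranged over all alternatives from 0.47 to 0.63 for Fer2, 0.90 to 1.11 for aop, 0.94 to 2.02 for apt and 0.09 to 0.30 for scro; a filter at 10 TPM removed apt and scro.

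Counts over all genes moved more. Genes called in level between HC18 and HC25 numbered 711, and 1073 after median-ratio rescaling, 138 without the 4 fmt-poor HC18 libraries and 422 with no replicate block, that is without pairing by time point; leaving out single libraries gave 457 (without HC18 ZT10) to 919 (without HC18 ZT24). Between HC18 and LC25 they numbered 836, and 1530 without 3 libraries that stand apart (HC18 ZT24, HC25 ZT06 and HC25 ZT08), 178 without the 4 and 517 with no replicate block, and 569 to 1254 without single libraries. Between LC25 and HC25, 1 gene passed without the 3 libraries, and 0 to 1 without single ones. Rhythm differences between HC18 and HC25 numbered 1 after rescaling, 5 without HC25 ZT06, 4 without the 3 libraries and 0 to 5 without single ones. The isoform balance of HC18 against HC25 gave 327 transcripts with a pseudocount of 5 TPM, against 194. The cause of these shifts was not tested. Rhythmic genes ranged from 10 to 13 for the neuronal transcription factors, 4 to 7 for the MAPK pathway, 1 to 3 for bHLH, 1 to 2 for NK, 0 to 1 for ETS and 0 to 2 for JAK/STAT genes. Depth is unknown, so what depth limits could not be judged.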
